A study of Homo sapiens with 8 samples.

Results

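The receptors through which estrogen and related steroids act were followed in SKBR3, a human HER2-amplified breast cancer cell line, by taking every probe set whose platform annotation gave ESR1, ESR2, GPER1, ESRRA, ESRRB, ESRRG, PGR, NR3C1 or NR3C2. All 9 genes were found, with 32 probe sets of the 54675 on the array, among 19775 genes that could be named. The series holds 8 Affymetrix expression arrays, 1 per condition, so no condition has a replicate and no difference below has a replicate error. Before treatment every culture spent 4 h in 10% serum stripped with charcoal, a step that takes out steroids, and 1 of the 8 conditions then followed for 3 h. These were estradiol at 1e-06 M, E2-BSA plus ICI (at 1e-06 and 1e-05 M), E2-BSA plus the GPER antagonist G15 (at 1e-06 and 1e-05 M), E2-BSA alone at 1e-06 M, G15 alone at 1e-05 M, 0.1% ethanol, the carrier BSA at 1e-06 M, and no treatment. E2-BSA is the hormone bound to albumin. The labels name ethanol as the vehicle of estradiol, but the label of the estradiol array itself gives no ethanol, so whether both arrays held the same amount is not stated. SKBR3 is 1 established line, so the arrays speak for that line alone, and ICI is named in the labels by this abbreviation only.

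The deposited values were centred for each probe set, so they say on which array a transcript was higher or lower and nothing about how abundant it was. Whether a receptor was expressed at all could therefore not be read from them, and in RNA from whole cultures fewer cells with a transcript and less of it per cell cannot be told apart. The same holds for the markers of the line and of other cells: of 16 measured markers of luminal HER2-amplified cells, fibroblasts, leukocytes and endothelium, 0 had a 2-fold range over the arrays, and their values lay between -0.32 and 0.43. Of all genes 1.86% had such a range, so a count of 0 among 16 is near the background and says nothing about the markers. All values and differences are read as log2, the base not being stated, and a call below means a difference of at least 1, that is 2-fold. As a yardstick for size, BSA minus untreated, a pair without hormone or antagonist, had an SD over genes of 0.166. Over single probe sets the SD of this pair was 0.228, so a gene with few probe sets tends to pass the yardstick more easily.

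Estrogens act through nuclear receptors, which bind DNA when they hold hormone, and through GPER, a G protein-coupled receptor of cell membranes that is linked to cAMP and to release of EGF-type ligands. ESR1 and ESR2 encode the nuclear estrogen receptors alpha and beta. The estrogen-related receptors ESRRA, ESRRB and ESRRG resemble them in sequence but do not bind estradiol, and regulate energy metabolism. PGR encodes the progesterone receptor, a classical estrogen-induced gene in breast cells with nuclear estrogen receptor, while NR3C1 and NR3C2 encode the glucocorticoid and mineralocorticoid receptors. SKBR3 is commonly described as lacking estrogen receptor alpha and as expressing GPER.

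The upstream regions of the receptor genes were taken from RefSeq (GRCh38.p14) to show which nuclear receptor motifs lie at the starts of these genes. There were 39 windows of 250 bases before an annotated start, for all 9 genes. Both GPER1 windows are shown because GPER is the target of G15. An ESRRG window is shown because ESRRG had the widest range among the gene means, and this window holds the half-site AGGTCA. Another ESRRG window, not shown, also holds it. Capitals mark the GC box GGGCGG, the TATA box TATAAA and the half-site AGGTCA, on either strand. The half-site is contained in the longer element TCAAGGTCA.
GPER1 distal start, chr7:1086868-1087117, plus strand: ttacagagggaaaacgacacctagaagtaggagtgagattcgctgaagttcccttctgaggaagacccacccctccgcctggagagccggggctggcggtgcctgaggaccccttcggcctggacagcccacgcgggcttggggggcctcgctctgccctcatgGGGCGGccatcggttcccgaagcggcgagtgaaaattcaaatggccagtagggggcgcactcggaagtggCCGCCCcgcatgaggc
GPER1 proximal start, chr7:1087863-1088112, plus strand: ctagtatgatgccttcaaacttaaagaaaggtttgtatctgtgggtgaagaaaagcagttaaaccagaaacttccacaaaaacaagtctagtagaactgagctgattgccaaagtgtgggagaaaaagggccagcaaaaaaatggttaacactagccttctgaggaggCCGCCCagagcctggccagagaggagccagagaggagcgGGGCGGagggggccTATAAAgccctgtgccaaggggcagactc
ESRRG, chr1:217076993-217077242, minus strand: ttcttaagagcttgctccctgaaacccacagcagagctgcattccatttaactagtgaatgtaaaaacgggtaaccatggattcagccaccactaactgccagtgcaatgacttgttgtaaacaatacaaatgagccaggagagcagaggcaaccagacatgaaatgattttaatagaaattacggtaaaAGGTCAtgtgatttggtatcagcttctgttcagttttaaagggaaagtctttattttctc
Each GPER1 window held 2 GC boxes, and the proximal one also held 1 TATA box. The palindromic estrogen response element GGTCANNNTGACC was found in 0 of the 39 receptor windows and in 0.0399% of all 35116 windows of the same length. The extended element TCAAGGTCA was found in 0 receptor windows, against 0.319% of all windows, and the glucocorticoid-type element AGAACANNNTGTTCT in 0, against 0.00285% of all. The half-site AGGTCA stood in 4 receptor windows (10.3%), of ESR2 and ESRRG, against 12.1% of all windows. The ESR2 windows with it overlap and hold the same copy, so the count is of windows and not of sites. GC boxes stood in 51.3% of the receptor windows and 42.6% of all, and TATA boxes in 7.69% and 10.7%. A match is a run of letters, not a shown binding site.

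Over the 8 arrays the receptor transcripts had ranges close to those of probe sets in general. The 32 probe sets had a median range of 0.436, against 0.422 over all 54613 non-control probe sets. Only 1 of the 32 (3.13%) had a 2-fold range, against 3.50% of all. The ethanol array stood further from the untreated one than BSA did, with an SD of the difference over genes of 0.304, and without it the medians were 0.427 and 0.364. Of the 256 receptor values, 39 were at least 0.2 in size and 3 at least 0.5. Exact zeros made up 21.5% of the receptor values and 21.7% of all values.

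**Figure D1:**
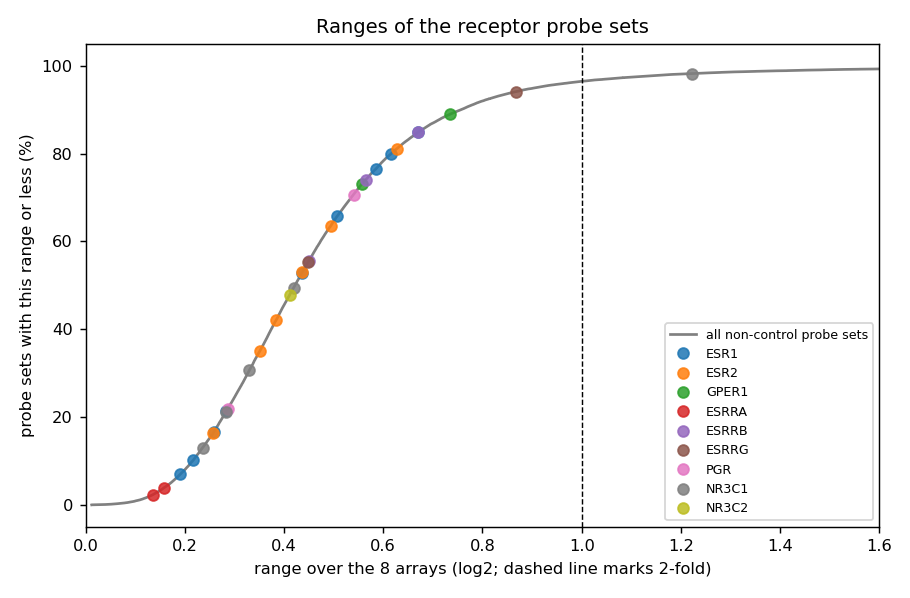
Range of each probe set over the 8 arrays (log2, x axis) against the percentage of all non-control probe sets with that range or less (y axis); the line is all such probe sets and the points are the 32 receptor probe sets, coloured by gene. The points spread along the whole line, and 1 NR3C1 probe set, at 1.22, lies beyond the dashed 2-fold line.

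**Figure D2:**
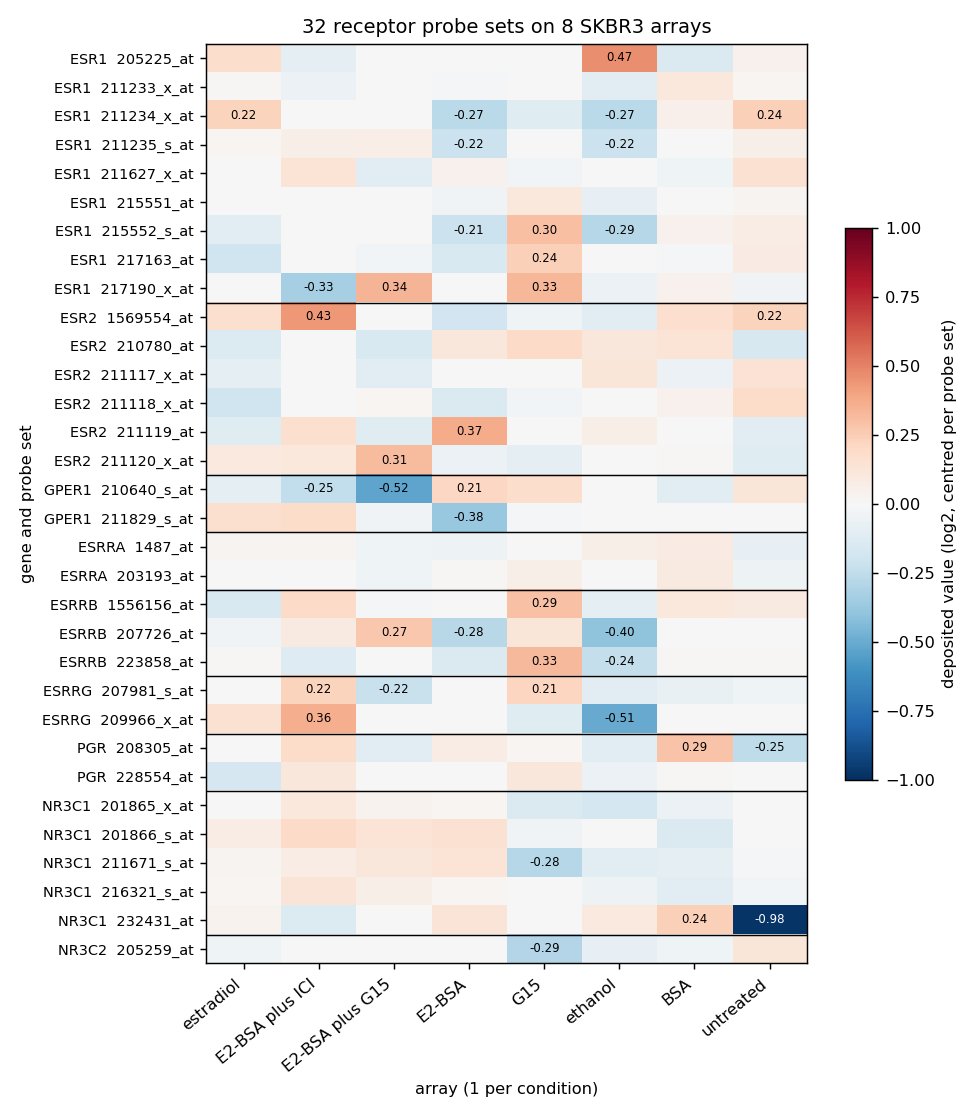
Deposited value (colour, log2, centred per probe set) of the 32 receptor probe sets (rows) on the 8 arrays (columns), with values of at least 0.2 in size printed. Most cells are near 0, and the strongest are the NR3C1 probe set 232431_at on the untreated array (-0.98) and the GPER1 probe set 210640_s_at with E2-BSA plus G15 (-0.52).

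GPER1 is covered by 2 probe sets, and they did not move together. Probe set 210640_s_at stood at -0.10 with estradiol, -0.25 with E2-BSA plus ICI, -0.52 with E2-BSA plus G15, 0.21 with E2-BSA, 0.18 with G15, 0.00 with ethanol, -0.11 with BSA and 0.12 in untreated cells. Probe set 211829_s_at stood at 0.16 with estradiol, 0.18 with E2-BSA plus ICI, -0.039 with E2-BSA plus G15, -0.38 with E2-BSA, -0.011 with G15, and at 0.00 with ethanol, with BSA and in untreated cells. The first probe set was thus lowest where E2-BSA and G15 were combined and highest with E2-BSA alone, the array on which the second was lowest. Across the 8 arrays the probe sets had a Pearson correlation of -0.44, a description of 8 values that share the arrays.

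For E2-BSA plus G15 minus E2-BSA, probe set 210640_s_at differed by -0.73, a 1.66-fold difference, and 0.593% of all probe sets had a larger one. Against G15 alone it differed by -0.70. The other probe set differed by 0.34 against E2-BSA and by -0.028 against G15. The mean of both was -0.28 with E2-BSA plus G15, the lowest of the 8 arrays and 0.198 below the next, E2-BSA. That is the only gap between neighbouring GPER1 means wider than the yardstick, and the remaining 7 arrays lay between -0.083 and 0.084. With E2-BSA, GPER1 stood at -0.083, against -0.057 with BSA, and with estradiol at 0.030, against 0.00 with ethanol.

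**Figure D3:**
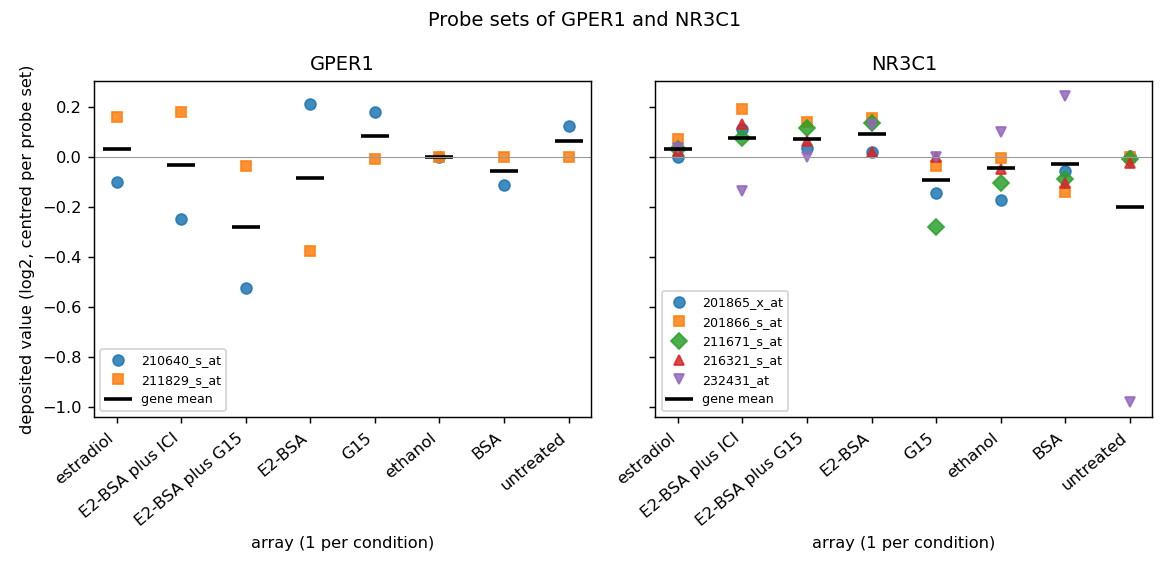
Deposited values (log2, centred per probe set, y axis) of each GPER1 and NR3C1 probe set (symbols) and of the gene mean (black bars) on the 8 arrays (x axis). The GPER1 probe sets part most with E2-BSA, at 0.21 and -0.38, and 4 of the 5 NR3C1 probe sets lie between -0.025 and 0.004 in untreated cells while the fifth is at -0.98.

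The nuclear estrogen receptors varied little as gene means. ESR1, with 9 probe sets, stood at 0.014 with estradiol, -0.032 with E2-BSA plus ICI, 0.030 with E2-BSA plus G15, -0.096 with E2-BSA, 0.092 with G15, -0.062 with ethanol, 0.005 with BSA and 0.074 in untreated cells. No gap between neighbours in that order exceeded the yardstick. Its range of 0.188 was exceeded by 87.5% of all genes. A mean over 9 probe sets tends to vary less than a single one, and the single ESR1 probe sets had ranges from 0.191 to 0.671. The widest was 217190_x_at, at -0.33 with E2-BSA plus ICI, 0.34 with E2-BSA plus G15 and 0.33 with G15. Probe set 205225_at was at 0.47 with ethanol, where 6 of the other 8 ESR1 probe sets were below 0 and the remaining 2 at 0. Of the 36 pairs of ESR1 probe sets 22 had a positive correlation over the arrays, and the median was 0.18, the same as the median over all genes with several probe sets (0.18).

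ESR2, with 6 probe sets, ranged from -0.050 with estradiol to 0.117 with E2-BSA plus ICI, and 91.7% of all genes had a wider range. As for ESR1, a mean over several probe sets tends to vary less, and the single ESR2 probe sets had ranges from 0.257 to 0.627. Its highest single value, 0.43 in 1569554_at with E2-BSA plus ICI, stood against -0.19 with E2-BSA, a difference of 0.63 or 1.54-fold. The other 5 probe sets lay between 0.00 and 0.16 with E2-BSA plus ICI. Probe set 211119_at was highest with E2-BSA, at 0.37. Only 6 of the 15 pairs of ESR2 probe sets correlated positively, with a median of -0.15.

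The estrogen-related receptors differed among themselves in how much they varied. ESRRA was the flattest of the 9 receptors: its 2 probe sets lay between -0.079 and 0.086 on all 8 arrays, and 95% of all genes had a wider range than its 0.147. Each was lowest in untreated cells and highest with BSA, and they correlated at 0.65 over the arrays. ESRRB, with 3 probe sets, stood at -0.060 with estradiol, 0.048 with E2-BSA plus ICI, 0.087 with E2-BSA plus G15, -0.14 with E2-BSA, 0.25 with G15, -0.24 with ethanol, 0.040 with BSA and 0.034 in untreated cells. All 3 ESRRB probe sets were above 0 with G15, at 0.12 to 0.33, and below 0 with ethanol, at -0.40 to -0.088, and their median correlation of 0.58 lay above the upper quartile over genes with several probe sets, 0.47.

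ESRRG had the widest range of the 9 gene means, at 0.597. It stood at 0.076 with estradiol, 0.29 with E2-BSA plus ICI, -0.11 with E2-BSA plus G15, 0.00 with E2-BSA, 0.048 with G15, -0.30 with ethanol, -0.041 with BSA and -0.022 in untreated cells. The arrays at both ends were each separated from their neighbour by more than the yardstick, and the 6 in between were not. Probe set 209966_x_at was at -0.51 and 207981_s_at at -0.10 with ethanol, and they were at 0.36 and 0.22 with E2-BSA plus ICI. ESRRG was the only receptor whose range reached the 0.5 set for a search for like patterns. Of 4259 genes with such a range, CSTPP1 (Pearson r = 0.98), CAVIN3 (0.98) and CCDC38 (0.96) were most like it over the 8 arrays, each lowest with ethanol and highest with E2-BSA plus ICI. Of these 3, 1 remained in the leading 3 by rank correlation and 1 without the ethanol array.

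PGR, the receptor that estrogen induces in cells with nuclear estrogen receptor alpha, had values with both forms of the hormone that depended on the array they were set against. PGR stood at -0.086 with estradiol, against -0.079 with ethanol, and at 0.037 with E2-BSA, against 0.148 with BSA. Both differences were smaller than the yardstick. Against untreated cells, where PGR was lowest, it differed by 0.040 with estradiol and by 0.16 with E2-BSA, also within the yardstick. The value in untreated cells was -0.126, and the highest, with E2-BSA plus ICI, was 0.149, close to that with BSA. Probe set 208305_at was lowest, at -0.25, in untreated cells and highest, at 0.29, with BSA, while 228554_at ranged from -0.17 with estradiol to 0.115.

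NR3C1, the glucocorticoid receptor, holds the single strongest value of all receptors, in 1 of its 5 probe sets. Probe set 232431_at stood at 0.035 with estradiol, -0.14 with E2-BSA plus ICI, 0.00 with E2-BSA plus G15, 0.13 with E2-BSA, 0.00 with G15, 0.100 with ethanol, 0.24 with BSA and -0.98 in untreated cells. The untreated array lies apart from all others, and 2-fold differences of this probe set, 1.22 for BSA minus untreated and 1.08 for ethanol minus untreated, both have it as the second array. Over all probe sets 0.397% and 1.09% reached 2-fold in these comparisons. For G15 minus untreated the probe set differed by 0.98, just short of 2-fold. The other 4 probe sets were between -0.025 and 0.004 in untreated cells.

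Those 4 NR3C1 probe sets were set apart after their values were seen, so what follows describes them and supports nothing. Their mean was 0.031 with estradiol, 0.126 with E2-BSA plus ICI, 0.088 with E2-BSA plus G15, 0.082 with E2-BSA, -0.116 with G15, -0.083 with ethanol, -0.097 with BSA and -0.008 in untreated cells. On the 3 arrays with E2-BSA all 4 were above 0, at 0.018 to 0.189. With G15, ethanol and BSA they lay between -0.28 and 0.00. These 4 gave 0.18 for E2-BSA minus BSA and 0.090 for E2-BSA minus untreated, beside -0.089 for BSA minus untreated without hormone. For E2-BSA minus BSA the remaining probe set, 232431_at, differed by -0.11. The yardstick of 0.166 exceeds all of these in size but the first.

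NR3C2, the mineralocorticoid receptor, is represented by 1 probe set. It stood at -0.041 with estradiol, at 0.00 with E2-BSA plus ICI, with E2-BSA plus G15 and with E2-BSA, at -0.29 with G15, at -0.080 with ethanol, at -0.045 with BSA and at 0.121 in untreated cells. G15 minus untreated gave -0.41, a 1.33-fold difference, the most negative among the receptor genes in any comparison. With E2-BSA present G15 gave 0.00, but both arrays held an exact 0. Of all probe sets 48.3% held an exact 0 on 2 or more arrays. A difference between tied zeros does not show that G15 left the transcript unchanged. The untreated array held the highest NR3C2 value, and against BSA the G15 array differed by -0.25.

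Across the 10 comparisons between conditions, 0 of the 9 receptor genes reached 2-fold in any. The background was low as well: of all 19775 genes 0.875% reached 2-fold for estradiol minus ethanol, 0.0202% for E2-BSA minus BSA, 0.00506% for G15 minus untreated, 0.0708% for E2-BSA plus ICI minus E2-BSA and 0.0455% for E2-BSA plus G15 minus E2-BSA. It was 0.0152% for E2-BSA plus G15 minus G15, 0.0152% for estradiol minus E2-BSA, 0.0101% between the antagonist arrays (E2-BSA with ICI minus E2-BSA with G15), 0.885% for ethanol minus untreated and 0.0303% for BSA minus untreated. A count of 0 among 9 genes is near the background in each. Of the 90 receptor differences 0 reached 1.5-fold either, where 1.30% of the differences of all genes did. In the same order of comparisons the share of all genes at 1.5-fold was 3.4%, 1.0%, 0.531%, 1.6%, 0.794%, 0.491%, 0.384%, 0.531%, 3.7% and 0.556%. Of the 320 differences of single receptor probe sets 8 reached it (2.5%), from 5 probe sets of 5 genes, beside 2.52% over all probe sets. They were the 3 of NR3C1 against untreated cells, the 2 of GPER1 given above, and 1 each of ESR1, ESR2 and ESRRG. Over all probe sets the shares in these comparisons were 1.5% for G15, 5.13% for ethanol and 2.46% for BSA against untreated cells, 1.63% and 1.29% for E2-BSA plus G15 against E2-BSA and against G15, 1.45% between the antagonist arrays, 3.78% for E2-BSA plus ICI minus E2-BSA and 4.44% for estradiol minus ethanol.

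**Figure D4:**
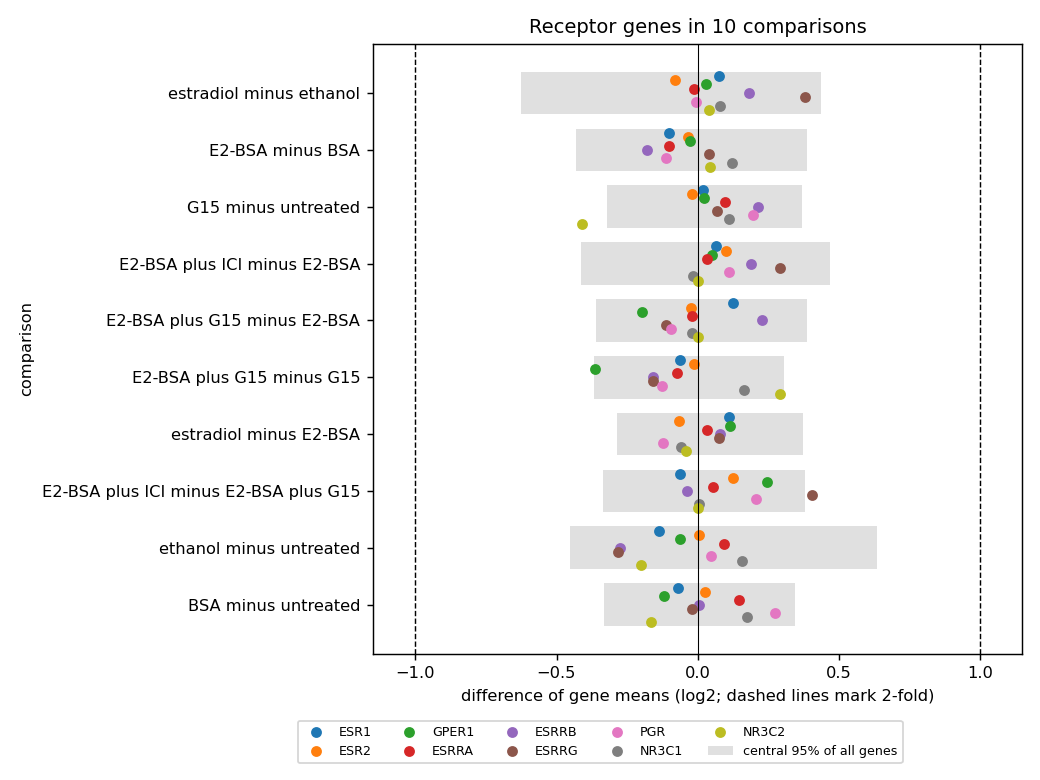
Difference of gene means (log2, x axis) for the 9 receptors (points) in the 10 comparisons (rows), with grey bars for the central 95% of all genes and dashed lines at 2-fold. All 90 points lie between -0.41 and 0.405, and those just outside a grey bar are NR3C2 for G15 minus untreated and ESRRG between the antagonist arrays.

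Free estradiol was set against ethanol, its labelled vehicle, to ask whether the hormone alters its own receptors within 3 h. ESRRG differed by 0.38 and ESRRB by 0.18, and the other 7 receptors lay between -0.081 and 0.078; 38.8% of all genes were past the yardstick. Both ESRRG and ESRRB had their lowest value with ethanol, and against untreated cells they differed by 0.098 and -0.094. The receptor median was 0.039 against ethanol, beside 0.022 over all genes. For E2-BSA minus BSA the receptors ran from -0.18 (ESRRB) to 0.12 (NR3C1), with a median of -0.036 beside 0.00 over all genes. ESRRB was the only 1 of 9 past the yardstick there, where 36.5% of all genes were.

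The 2 forms of the hormone, each labelled 1e-06 M, were compared directly. They differ by the albumin attached to E2-BSA. Ethanol, named as the vehicle of estradiol, may differ as well, as its amount on the estradiol array is not stated. Albumin and vehicle cannot be told apart in this pair. From -0.123 (PGR) to 0.114 (GPER1), 0 of the 9 receptors differed by more than the yardstick, while 26.1% of all genes did. No replicate gives an interval for this pair. When limma was given the variation among ethanol, BSA and untreated instead, the 95% intervals of the 9 differences lay within -0.61 and 0.60. Those are different conditions, so the intervals do not measure replicate error. Differences within these bounds are not resolved.

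ICI and G15 were compared where E2-BSA was present, at the same labelled 1e-05 M. ICI is named by abbreviation only, so the pair is not read as a contrast of blockers. The ICI array minus the G15 array gave 0.405 for ESRRG, 0.25 for GPER1, 0.21 for PGR and 0.126 for ESR2, and the other 5 receptors lay between -0.061 and 0.053. The first 3 were past the yardstick, where 29.0% of all genes were. For ESRRG the interval from limma ran from -0.108 to 0.92 and for GPER1 from -0.076 to 0.57. Their width comes from ethanol, BSA and untreated, which are different conditions. For ESRRG these stood at -0.30, -0.041 and -0.022. The intervals do not measure replicate error, so whether they include 0 decides nothing. The differences between the ICI and G15 arrays share arrays with those against E2-BSA. Against E2-BSA alone, E2-BSA plus ICI gave 0.29 for ESRRG and 0.19 for ESRRB, and E2-BSA plus G15 gave 0.23 for ESRRB and -0.198 for GPER1.

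G15 alone gave 0.21 for ESRRB, 0.19 for PGR and -0.41 for NR3C2 against untreated cells, the 3 receptors past the yardstick where 27.5% of all genes were. These genes have 3, 2 and 1 probe sets, and the SD of the yardstick pair over single probe sets was 0.228. GPER1, the receptor it blocks, stood at 0.084 with G15, against 0.061 in untreated cells. The vehicle and the carrier, set against untreated cells, gave differences of the same order: ethanol minus untreated ran from -0.28 (ESRRG) to 0.16 (NR3C1) and BSA minus untreated from -0.165 (NR3C2) to 0.27 (PGR). The NR3C1 value rests on 232431_at: 4 of its 5 probe sets were below 0 for ethanol minus untreated, and without 232431_at the gene gave -0.075.

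The receptors were then set beside genes that work with them, in lists drawn up from general knowledge with earlier results of these data known. Of 15 chaperones and co-chaperones that hold steroid receptors ready to bind hormone 13 were measured, and 0 reached 1.5-fold in any of the 10 comparisons. For E2-BSA minus BSA all 13 were above 0, where 49.3% of all genes were, with a median of 0.194 beside 0.00. STIP1, which links the chaperones HSP70 and HSP90, differed by 0.32 and STUB1, a ubiquitin ligase of chaperone clients, by 0.008. BSA minus untreated gave 12 of 13 below 0 (49.4% of all genes) and a median of -0.092. Ethanol and estradiol also gave 11 of 13 below 0 each against untreated cells (56.0% and 49.4% of all genes), with medians of -0.076 and -0.093, while E2-BSA minus untreated gave 10 of 13 above 0 (52.1% of all genes) and a median of 0.054. Estradiol minus E2-BSA had 13 of 13 below 0 (52.6% of all genes) and a median of -0.111. The chaperone differences share arrays, among them BSA, E2-BSA and untreated, so the counts are not separate results. The genes are not replicates of a condition.

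Of 20 coregulators 17 were measured, with 0 at 2-fold in any comparison. NCOA7, a coactivator of estrogen receptor, differed by 0.86 and PPRC1, of the PGC-1 coactivator family, by 0.76 for ethanol minus untreated, where 3.7% of all genes reached 1.5-fold, and by -0.79 and -0.69 for estradiol minus ethanol, where 3.4% did; the ethanol array is shared. NRIP1, a corepressor that estrogen induces in cells with nuclear estrogen receptor, stood at -0.065 with estradiol, -0.22 with E2-BSA plus ICI, -0.17 with E2-BSA plus G15, 0.26 with E2-BSA, -0.42 with G15, 0.45 with ethanol, -0.26 with BSA and 0.14 in untreated cells. It differed by 0.51 for E2-BSA minus BSA, the most positive of the list there, and by 0.119 for E2-BSA minus untreated.

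Of 17 genes coupled to GPER 15 were measured, with 0 at 2-fold. HBEGF, the EGF-type ligand released in GPER signalling, differed by 0.91 for ethanol minus untreated, by -0.83 for estradiol minus ethanol, and by 0.024 for E2-BSA minus BSA. The first 2 share the ethanol array, and HBEGF stood at 0.037 with estradiol, against -0.041 in untreated cells. RAMP3, a receptor activity-modifying protein, was the most negative of the list for E2-BSA minus BSA at -0.56. Of 16 steroid-metabolizing enzymes 15 were measured, again with 0 at 2-fold. CYP1A1, which hydroxylates estradiol, differed by 0.69 for estradiol minus ethanol, where 3.4% of all genes reached 1.5-fold. CYP1A1 was at -0.36 with ethanol, and estradiol gave 0.33 against untreated cells and 0.85 against BSA. It was highest with G15 alone, without hormone, which gave 0.47 against untreated cells and 0.998 against BSA. CYP1A1 has 1 probe set, and of all probe sets 4.44% reached 1.5-fold for estradiol minus ethanol. HSD11B2, which inactivates cortisol, differed by -0.61 for E2-BSA plus G15 minus E2-BSA, where 0.794% of all genes reached 1.5-fold. HSD11B2 also has 1 probe set, and of all probe sets 1.63% reached 1.5-fold there.

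Of 27 other nuclear receptors 22 were measured, and only here were there 2-fold differences. NR4A2 and NR4A3, orphan receptors induced early by many stimuli, differed by 2.03 and 1.08 for ethanol minus untreated, and NR4A2 by -1.74 for estradiol minus ethanol; for estradiol minus untreated NR4A2 differed by 0.29. VDR, the vitamin D receptor, and NR1D2, a heme-binding repressor of the circadian clock, differed by 0.66 and 0.59 for ethanol minus untreated. NR1D2 also differed by 0.79 for E2-BSA minus BSA, with the BSA array its lowest at -0.50. The median of this list was 0.015 for ethanol minus untreated and 0.049 for E2-BSA minus BSA, beside -0.028 and 0.00 over all genes.

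**Figure D5:**
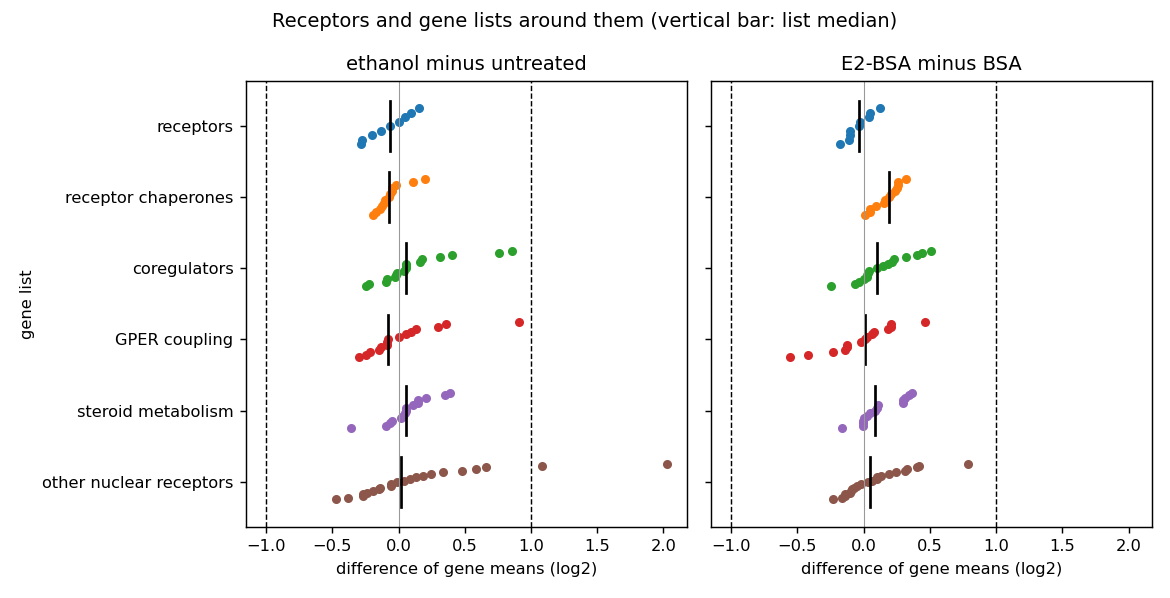
Difference of gene means (log2, x axis) for the 9 receptors and the measured members of the 5 lists (rows; points are genes, vertical bars list medians), for ethanol minus untreated and E2-BSA minus BSA; dashed lines mark 2-fold. The receptors lie between -0.28 and 0.16 with ethanol, where NR4A2 is at 2.03, and all 13 chaperones lie right of 0 for E2-BSA minus BSA.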

How the data were processed

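Expression was measured on 8 Affymetrix arrays of 54675 probe sets, 1 per condition, grouped by their titles. The deposited values are treated as log2; the sources used here do not give the authors' log base, summarization, normalization or software. In no probe set are over 4 arrays above 0 or over 4 below it, so the values are centred, and no filter on low values was possible. The quartiles differed between arrays by at most 0.0959, and values were used as deposited. The 62 control probe sets were left out. Of the others 41091 had 1 gene symbol, 1801 several and 11721 none; symbols were updated through gene identifiers, 41037 matching. A gene is the mean of its probe sets. Differences of 2 arrays have no test. The fit with limma 3.58.1 (R 4.3.3) took the ethanol, BSA and untreated arrays as 3 samples of 1 group, though they are different conditions. A trial of it on simulated data drew independent normal noise with SDs that left out the ethanol array. That trial does not show how the fit performs on these arrays. Named genes were the receptors, list members at 2-fold or at either end of a list, and the 3 genes most like a receptor with a range of at least 0.5; PPRC1 and VDR, at 1.5-fold, were added with their values known. The members and lists were chosen with earlier results of these data known. No batch is given in the labels. The array count limits the precision.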

Additional observations from a re-analysis of the deposited data

How the results depend on the processing

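Centring each array on its median left all 90 receptor differences as they were, since every array median is 0. Over the alternatives tried (another comparator, probe-set rule, centring or limma) 294 of 349 receptor differences moved by less than 0.166 and 55 by more. No difference at 2-fold changed direction, as none had reached it. The 349 include the 90 centred differences, which could not move. They also include genes whose mean a probe-set rule leaves as it was, such as NR3C2 with 1 probe set. The share that stayed is therefore no measure of stability. The count of receptors at 2-fold was 0 in all 10 comparisons, and became 1, NR3C1, for ethanol minus untreated and 1, NR3C1, for BSA minus untreated when a gene was represented by its probe set with the largest SD or only by probe sets whose suffix does not mark shared sequence; in both cases the gene rests on 232431_at. Only 7 of the 9 genes have a probe set of the latter kind, GPER1 and ESRRG having none. Without 232431_at, left out after seeing the data, NR3C1 gave -0.075 for ethanol minus untreated and -0.089 for BSA minus untreated, and without 210640_s_at GPER1 gave 0.34 for E2-BSA plus G15 minus E2-BSA. The widest receptor range, 0.597 for ESRRG, was 0.412, for NR3C2, without the ethanol array. In the limma fit each treated condition has 1 array, so only sizes are given here and no receptor was called from it. Differences from the ligand-free mean, which holds the ethanol array, ran from -0.29 (NR3C2 with G15) to 0.41 (ESRRG with E2-BSA plus ICI). GPER1 with E2-BSA plus G15 differed by -0.28. That value rests on 210640_s_at, at -0.52 on this array, while 211829_s_at was at -0.039. No paired analysis was possible because each condition has 1 array.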
